A study of Mus musculus with 2 samples.

Results

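Junctions across introns of 50 kb or more were examined in spliced RNA of CD4+ T cells from mouse spleen, the cells that help other lymphocytes respond. They were chosen by length alone: every junction that either library listed was taken when its intron, the stretch between the 2 joined exons, was 50000 bp or longer. Of 124183 junctions listed in either library, 1167 met this rule. The mock library listed 849 of them among 97850 junctions and the stimulated library 836 among 97395. Both libraries listed 518, the mock library alone 331 and the stimulated library alone 318. The share listed in both was 44.4%, beside 44.5% of junctions of 10 to 50 kb and 57.2% of all junctions. Each group was 1 library of total RNA from cells enriched magnetically from the pooled spleens of 4 male C57BL/6JJcl mice. The stimulated cells were held for 4 h on plates coated with 2 antibodies, each at 2 ug/ml. One binds CD3e, which is part of the receptor for antigen, and the other CD28, which gives the cell a second signal. The mock cells were handled in the same way without antibody. With 1 library per group there was no replicate check, no p-value was computed, and every interval below covers counting error only.

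An intron is removed from the primary transcript when the splicing machinery joins the donor site at its start to the acceptor site at its end, and a read that crosses the joint shows which sites were joined. RNA polymerase has to transcribe the whole intron before its acceptor site exists, so a very long intron adds to the time between the start of transcription and a finished message. In mammals such introns are frequent near the start of genes, where alternative promoters and first exons make several upstream exons join to the same downstream exon. Genes in T cells that carry them include some for transcription factors, kinases and their adaptors, regulators of the actin cytoskeleton and RNA-binding proteins.

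The exon sequences joined across 6 such introns are given here because these coding joints were among the most read or the most different between the libraries. Each sequence holds the last 15 bases of the upstream exon in lower case and the first 15 of the downstream exon in capitals, 5′ to 3′, from the GENCODE M21 transcripts of GRCm38. The intron between them is given by its first and last base in mm9, counted from 1.
Lef1, chr3:130818465-130887560, + strand, intron 3 of 11: cccatcccgaggacaTCAAATAAAGTGCCC
Actn1, chr12:81310461-81360973, - strand, intron 1 of 20: aagcagcagaggaagACGTTCACAGCCTGG
Dock2, chr11:34212558-34338274, - strand, intron 27 of 51: gatcacgctttgattAGTCACTTTGTGGCG
St8sia6, chr2:13645160-13714380, - strand, intron 2 of 7: acgcaccaggaacagCACATATCTGGATGA
Gramd1b, chr9:40141241-40220881, - strand, intron 2 of 20: agtgcgcgacgaaagCACTGCCAGTAACTC
Rab8b, chr9:66711291-66767316, - strand, intron 1 of 7: ttatctccaccatcgGAATTGATTTTAAAA
In the genome the small letters and the capitals of the Dock2 joint are 125717 bp apart, and those of the Actn1 joint 50513 bp. The reads on these 6 joints were 232 in the mock and 32 in the stimulated library for Lef1, 117 and 15 for Actn1, 108 and 51 for Dock2, 88 and 0 for St8sia6, 4 and 107 for Gramd1b, and 5 and 41 for Rab8b. The joints of Lef1, Actn1, Dock2 and St8sia6 were read less often in the stimulated library and those of Gramd1b and Rab8b more often, past the threshold used below.

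The lists of junctions themselves changed at 50 kb. Of the junctions with introns of 45 to 50 kb, 41.1% in the mock and 38.0% in the stimulated library were listed with 1 read. From 50 to 55 kb the same shares were 0.935% (95% interval 0.0237 to 5.10) and 0% (0 to 3.66). Over all lengths from 50 kb, 4 of 849 junctions in the mock and 17 of 836 in the stimulated library had 1 read. Of those 17, 14 lay on chromosome 12 between 116358013 and 116996248, and all 14 had the same reach of 39 and 43 bases into the exons on either side. Each junction was listed with a reach into the exon on either side, called the anchor, and not with the reach of each read. The smallest anchor of any listed junction was 13 bases in both libraries from 50 kb on and 8 bases between 10 and 50 kb. A junction of this length that a library does not list may therefore have had 1 read there, and the counts from 50 kb on are not the same kind of list as those below it. The plot of single-read junctions by intron length shows the step in both libraries.

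**Figure D1:**
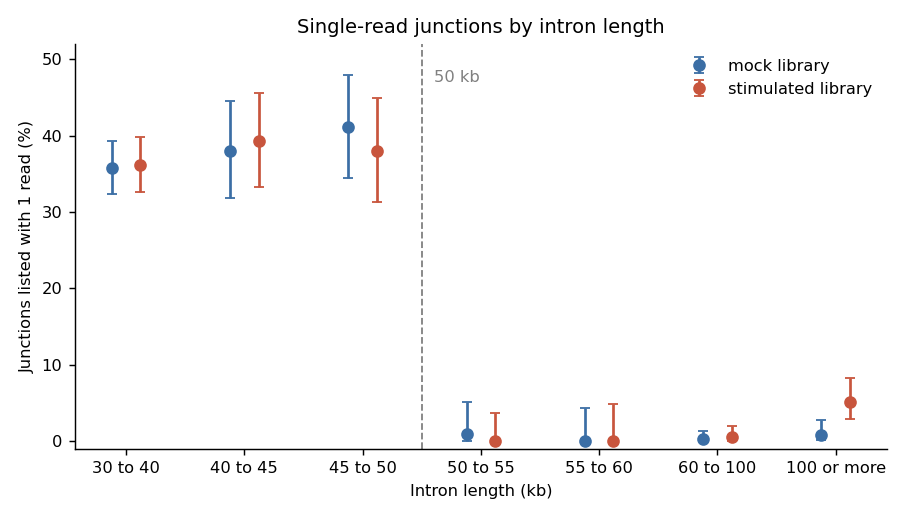
Share of listed junctions that had 1 read (y axis, percent) by intron length (x axis, kb) in the mock and the stimulated library, with exact 95% intervals as bars. Both libraries drop from 41.1% and 38.0% just under 50 kb to 0.935% and 0% just above it.

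Long-intron junctions held 7984 of 1147232 junction reads in the mock library, or 0.696% (95% interval 0.681 to 0.711), and 7562 of 1341197 in the stimulated library, or 0.564% (0.551 to 0.577). The share in the stimulated library was 0.810 of that in the mock library, and the intervals did not overlap. The classes beside it moved less. Introns of 10 to 50 kb held 4.43% and 4.23% of the reads, and introns of 1 to 10 kb 45.1% and 43.7%. Introns of 100 bp to 1 kb went the other way, with 42.0% and 43.3%. Mean insert sizes were 211.79 bp in the mock and 199.014 bp in the stimulated library, per the labels, and the part of this difference in the shares was not tested.

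The members were of several kinds. In 603 of 1167 both ends were the sites of 1 annotated intron. In 290 the ends were splice sites of 2 different genes, in 129 only 1 end was a splice site of a gene, in 124 neither was, and 21 joined sites of 1 gene in a way that is not annotated. Placed only by sites shared with named junctions in the files, the members without a name of their own had 182 between 2 genes, 26 within 1 gene, 167 with 1 end and 227 with neither end at a gene's site. The annotated introns had a median length of 68915 bp and reached 378202 bp, and the junctions between 2 genes had a median of 95846 bp. Junctions between 2 genes made up 24.9% of the members and 0.444% of all junctions. The drop in the share of reads came with the annotated introns, whose reads were 5256 in the mock and 4196 in the stimulated library, 0.458% and 0.313% of each library. The 564 other members had 2728 and 3366 reads, and the ratio of their shares was 1.06. Of the annotated introns 43.1% were listed in 1 library only, against 56.2% of the junctions between 2 genes and 83.9% of those with neither end in a gene. For the same kinds over every length these shares were 31.9%, 65.2% and 79.7%, and over all junctions 42.8%. Annotated introns of 10 to 50 kb had 41.0%.

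Most junctions between 2 genes joined near-identical copies. In 238 of 290 the joined sequence had 0 mismatches over 20 bases to the joint that one of the genes makes within itself, and in 284 it had at most 2. The clearest case was Srp54, whose product binds the signal peptide of proteins bound for secretion and which has 3 copies, Srp54a, Srp54b and Srp54c, on chromosome 12. The sequences around the most-read joint between copies show what a read across it would hold, with the upstream exon in lower case and the downstream exon in capitals, 25 bases of each, from the GENCODE M21 transcripts.
Srp54a own joint: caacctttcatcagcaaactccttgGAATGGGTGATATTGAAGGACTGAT
Srp54b own joint: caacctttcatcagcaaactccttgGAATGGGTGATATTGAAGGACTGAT
Srp54a to Srp54b: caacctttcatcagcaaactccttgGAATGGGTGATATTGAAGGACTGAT
The 3 sequences were the same at all 50 bases. The junction from Srp54a to Srp54b at chr12:56202911-56278514 in mm9, 75604 bp, had 39 reads in the mock and 84 in the stimulated library, and the same 2 numbers stood on a junction within 1 copy that shared an end with it. The 3 copies were joined to each other by 45 listed junctions, 15 for each pair. A further joint was listed with 41 and 59 reads for all 3 pairs, and another with 19 and 51 for all 3. Of the 371 members with at least 10 reads, 56 (15.1%) had the same reads and anchors in both libraries as another junction, against 4 of 2412 junctions of 10 to 50 kb (0.166%). Among the 234 annotated members of that depth, named by length and neighbour, there were 0. Where copies are this alike, the reads cannot be given to 1 copy, and values of such members are uncertain.

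The most-read member of all was of this kind. It ran from H2-D1, a classical class I antigen-presenting gene, to H2-Q7, a class Ib gene of the same complex, at chr17:35403672-35580293, 176622 bp apart, with 482 reads in the mock and 375 in the stimulated library (ratio 0.665, 95% interval 0.580 to 0.763). It took 79.7% of the reads that left its donor site in the mock and 75.3% in the stimulated library, and the annotated 139-bp intron of H2-D1 took 20.3% and 24.1%. Its joined sequence had 1 mismatch in 20 bases to the own joint of 1 of the genes. Further junctions of this kind differed more between the libraries. The junction from Ly6c1 to Ly6a, 2 genes for small surface proteins anchored by lipid, had 16 and 115 reads (6.15-fold higher, 3.63 to 11.1), and a nearby one had 0 and 43. The junction of 383183 bp from 9030619P08Rik to Ly6c1 had 17 and 104 reads (5.23-fold higher, 3.12 to 9.32). The 4 junctions from Gbp10 to Gbp4, 2 genes of interferon-induced GTPases, had 15 and 66 reads in sum (3.76-fold higher, 2.13 to 7.10), with 13 and 29 on the most-read and 2 and 28 on the next. One from 9930111J21Rik2 to 9930111J21Rik1 had 46 and 3 (17.9-fold lower). The 15 junctions within each Srp54 pair summed to between 190 and 199 reads in the mock and between 323 and 337 in the stimulated library.

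Annotated long introns lay near the start of their genes. Of 565 named by length and neighbour, in 408 genes, 208 (36.8%, 95% interval 32.8 to 40.9) were the first intron of the transcript they fitted, against 32.6% of introns of 10 to 50 kb and 9.46% of all named junctions. The first 3 introns held 67.4% of them, against 27.2% of all. Introns of the 5′ UTR, the part of the message before the coding sequence, made up 20.5% of them and 4.70% of all named junctions. Of introns of 10 to 50 kb they made up 16.8%. Of the 565, 560 were in protein-coding genes. In 304 of the 408 genes there was 1 long-intron junction, in 69 there were 2, in 21 there were 3, in 12 there were 4 and in 2, Foxp1 and Mbnl1, there were 6.

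For the comparison of the libraries a junction needed at least 20 reads over both, and was called higher or lower when the ratio of its reads per 1000000 junction reads was at least 2 or at most the inverse and the exact 95% interval excluded 1. Of the 181 members with enough reads 32 (17.7%) were higher and 51 (28.2%) lower in the stimulated library, beside 20.7% higher and 20.6% lower over all 30589 junctions tested. The share of lower calls was thus above the background, and that of higher calls was near it. Junctions of 10 to 50 kb had 18.6% higher and 25.5% lower, and those of 1 to 10 kb 19.5% and 20.8%. The median log2 ratio was -0.33 over members and -0.04 over all junctions. Scaling by the trimmed mean of M values moved all log2 ratios up by 0.24, to -0.09 for the members and 0.20 for all junctions, so the direction of the second median depends on the scaling.

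The kinds of member went different ways. Of 120 annotated introns tested, 14 (11.7%) were higher and 42 (35%) lower, and their median log2 ratio was -0.59. Of 51 junctions between 2 genes 17 were higher and 8 lower and the median was 0.71, and these repeat the counts of a few families. Under the trimmed mean the annotated introns had 18 higher (15%) and 36 lower (30%) with a median of -0.36. All junctions then had 25.7% higher and 16.2% lower. From 100 kb on, where annotated introns are fewer, 4 of 16 annotated introns were higher and 6 lower, and 9 of 22 junctions between 2 genes were higher and 4 lower. The difference between the kinds was not tested. The plot of members in both libraries shows most annotated introns with more than 20 reads under the line of equal shares.

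**Figure D2:**
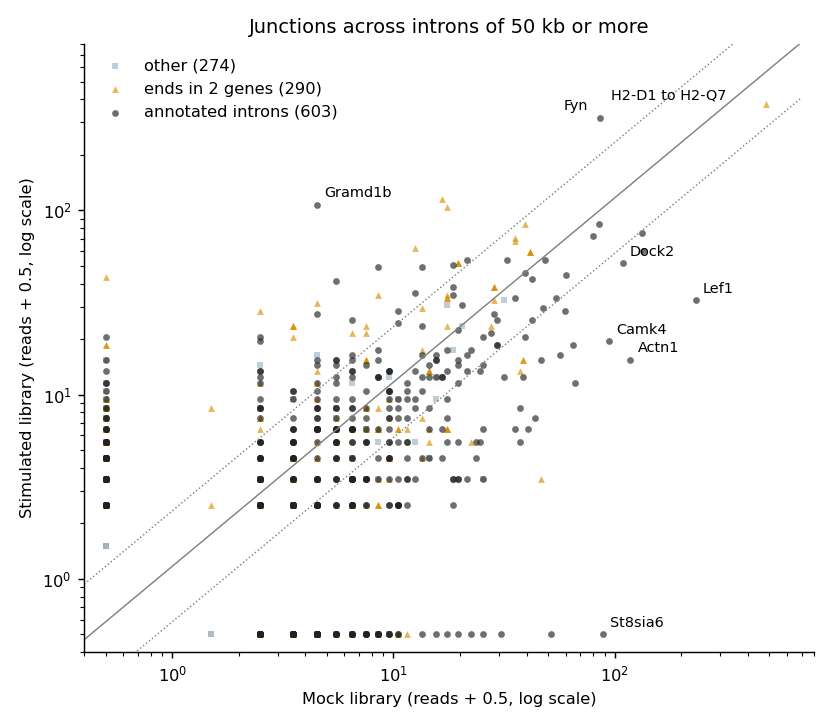
Reads of the 1167 members in the mock (x axis) and the stimulated library (y axis), with 0.5 reads added, both axes logarithmic. Black circles are the 603 annotated introns, orange triangles the 290 junctions between 2 genes and pale squares the 274 others. The solid line is an equal share of the reads and the dotted lines are a ratio of 2 and its inverse. Fyn and Gramd1b lie above the lines, and Lef1, Actn1, Camk4 and St8sia6 below them.

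The T cell receptor and kinase signalling list, 79 genes of which 29 had a member, had 18 members tested, 2 higher and 8 lower, beside 11.7% higher and 35% lower over the annotated members and 20.7% and 20.6% over all junctions. The median of their log2 ratios was -1.05, beside -0.59 over the annotated members and -0.04 over all junctions. The higher ones were Fyn and Prkch. Fyn encodes a Src family kinase that acts just below the T cell receptor, and its intron of 56603 bp before the coding sequence, chr10:39174942-39231544, had 85 reads in the mock and 318 in the stimulated library (3.20-fold higher, 2.51 to 4.12). Prkch, a protein kinase C, had 10 and 28 reads on its first intron. The 8 lower ones lay in 7 genes. Camk4, a calcium and calmodulin dependent kinase, had 94 and 19 reads across 138448 bp (5.78-fold lower). Stim1, the calcium sensor of the endoplasmic reticulum that opens store-operated channels, had 43 and 7 reads on its first intron (7.18-fold lower). Skap1, an adaptor that links the receptor to integrins, had 56 and 16 reads across 161122 bp, 1 of the longest named introns read here (4.09-fold lower). Themis, an adaptor needed in thymocyte selection, had 30 reads in the mock and 0 in the stimulated library. It was 11.7-fold lower with 3 reads put in place of 0, and the upper limit of the ratio was 0.112. Pde3b, a phosphodiesterase that breaks down cyclic nucleotides, had 66 and 11 reads. Gsk3b had 16 and 4. Inpp4b, a phosphatase of inositol lipids, had 3 long introns, and both of those with at least 20 reads were lower. Intron 6 had 134 and 60 reads, and intron 24, the last one, 59 and 28. Jak1, Prkcq, Map4k4, Prkca, Taok3, Cblb, Camk2d and the other tested intron of Fyn did not pass the threshold.

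Of the transcription factors, 62 genes of which 25 had a member, 18 members were tested, 2 higher and 4 lower, and the median of their log2 ratios was -0.52. Over the annotated members the shares were 11.7% and 35% with a median of -0.59, and over all junctions 20.7% and 20.6%. Lef1, the partner of beta-catenin that marks naive T cells, had the most reads of any annotated lower member, 232 and 32 (ratio 0.118, 95% interval 0.0789 to 0.171). The gene as a whole had 2347 and 321 reads. Fli1, an ETS family factor, had 23 and 4 reads on its first intron. The intron 5 of Foxp1, a forkhead factor that keeps naive T cells quiescent, had 46 and 15 reads, and intron 2 of Hivep2, a zinc finger protein, 16 and 6. The higher ones were Tox and Runx1. Tox, a high mobility group box protein, had 13 and 49 reads across a first intron of 147963 bp (3.22-fold higher, 1.72 to 6.48). Runx1 had 18 and 50 reads across 129851 bp (2.38-fold higher, 1.36 to 4.33). The other 12 did not pass, among them Tcf12 with 20 and 30 reads, Foxo1 with 17 and 17, Bach2 with 25 and 20, Bcl11b with 29 and 25 and Zeb1 with 42 and 25. Of 4 tested members in chromatin regulators 0 were higher and 2 lower, beside 20.7% and 20.6% of all junctions, which 4 members are too few to be set against. Mllt3, a reader of acetylated histones, had 38 and 12 reads across 151375 bp and Phf21a had 18 and 3, while Nipbl, which loads cohesin onto DNA, had 15 and 15.

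The genes of the cytoskeleton and guanine nucleotide exchange had 9 members tested that were named by length and neighbour, 0 higher and 5 lower, beside 11.7% and 35% of the annotated members and 20.7% and 20.6% of all junctions. The median of their log2 ratios was -1.04. Actn1, which encodes the actin crosslinker alpha-actinin, had 117 and 15 reads on its first intron (9.12-fold lower, ratio 0.110, 0.0595 to 0.188). Dock2, the exchange factor that activates Rac in lymphocytes, had 108 and 51 reads on its intron of 125717 bp (2.48-fold lower), and a further intron of 86473 bp matched by both ends had 31 and 12. Dock11 had 25 and 14, Ankrd44 18 and 3, and the last intron of Arhgap15, which lies in the 3′ UTR, 21 and 3. Elmo1, the partner of Dock proteins, had 4 long introns, of which 3 had at least 20 reads. These had 48 and 53, 42 and 42, and 29 and 18 reads, and none of the 3 passed the threshold. RNA-binding proteins had 9 members tested, 1 higher and 5 lower, with a median of -1.05, beside the same shares of annotated members and of all junctions. Of the 9, 4 were introns of the 1 gene Mbnl1. Celf2 had 39 and 20 reads, Tnrc6b, a scaffold of microRNA silencing, 19 and 3, and 3 of the lower ones were introns of Mbnl1. Celf1 had 2 and 19 reads and was the higher one. Membrane traffic had 2 tested members: Rab8b, a small GTPase of vesicle transport, with 5 and 41 reads (7.01-fold higher, 2.77 to 22.7) and Stx8 with 9 and 13. The lists of surface proteins and of ubiquitin and protein turnover had 7 and 6 members, and 0 with 20 reads.

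Outside the lists, the members with the highest and lowest limits were in genes of several roles. Gramd1b, a protein that moves cholesterol from the plasma membrane to the endoplasmic reticulum, had 4 and 107 reads (22.9-fold higher, 8.68 to 85.5) in a gene with 127 and 2914 reads. Gfod1 had 0 and 20 reads across 102000 bp, 5.70-fold higher with 3 reads in place of 0. Sik3, a salt-inducible kinase, had 8 and 49 reads across its first intron of 110086 bp (5.24-fold higher), Ahcyl2 4 and 27, Lrch1 6 and 25 and the peroxisomal import gene Pex14 2 and 20. St8sia6, a sialyltransferase, had 88 and 0 reads, 34.3-fold lower with 3 reads in place of 0, and an upper limit of 0.0366. Its gene had 231 reads in the mock and 6 in the stimulated library. Sntb1, a syntrophin that binds dystrophin-like proteins, had 51 and 0 reads across 113773 bp, 19.9-fold lower with 3 reads in place of 0. St6gal1, another sialyltransferase, had 25 and 3, and Ccnd3, a cyclin of the early cell cycle, 40 and 6. Long introns of Gm14085 had 25 and 0 and 22 and 0 reads. They started at sites that junctions of Slc28a2 also used, so these 2 genes share reads here and their values are uncertain.

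Whole genes with such introns were lower more often than other genes. For this count, the reads of every named junction of a gene were added up. Of 367 genes tested whose longest named intron was 50 kb or more, 41 (11.2%) were higher and 135 (36.8%) lower, beside 17.1% higher and 25.1% lower over all 7205 genes tested. Genes whose longest intron was under 1 kb had 23.3% higher and 23.1% lower, those of 1 to 10 kb 19.2% and 23.2%, and those of 10 to 50 kb 13.4% and 26.8%. The median log2 ratio went from -0.02 in the genes of the shortest introns through -0.09 and -0.34 to -0.62. The order of the medians was the same under the trimmed mean of M values, at 0.22, 0.15, -0.10 and -0.38, and the first 2 then lay above 0. Under that scaling 21.6% of all genes were higher and 19.6% lower, so the balance over all genes turned. In the class of 1 to 10 kb 24.2% were then higher, above the share that was lower, while the long-intron genes had 52 higher (14.2%) and 113 lower (30.8%). Summed without their long-intron junctions, 37 of the long-intron genes were higher and 132 lower, so the count did not rest on those junctions. Genes with longer introns also had more reads, with a median of 131 over both libraries in the longest class and 18.5 in the shortest, and the part of depth was not tested. Values are shares of a library's junction reads, so a lower one can mean less RNA per cell or fewer cells that express the gene. It can also mean more RNA of other genes, and these cannot be told apart.

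**Figure D3:**
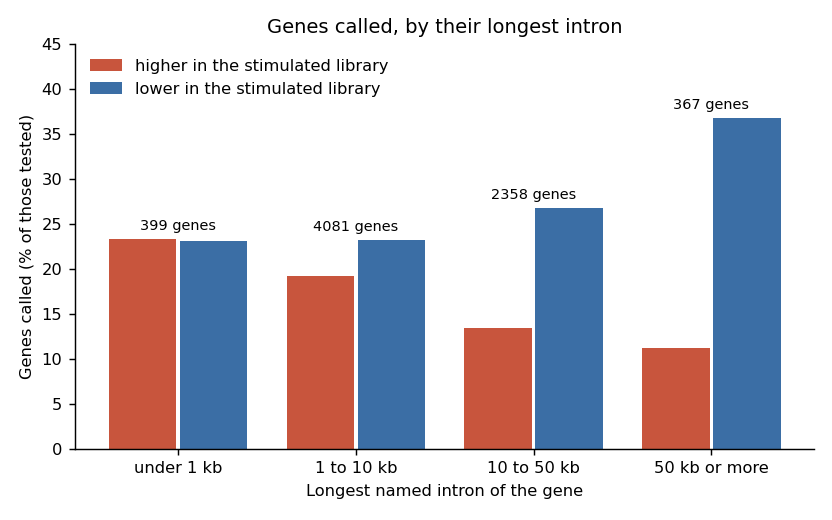
Percent of tested genes called higher (red) and lower (blue) in the stimulated library (y axis) by the length of the longest named intron of the gene (x axis). The number of genes tested stands above each pair of bars, and the lower share is 36.8% in the class of 50 kb or more.

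First introns did not follow the same pattern at each length. Of 49 first introns of 50 kb or more tested, 8 were higher and 19 lower, while of 375 first introns of 10 to 50 kb 97 were higher and 73 lower, and of 901 of 1 to 10 kb 335 were higher and 133 lower. Over first introns of every length 641 of 1853 were higher and 302 lower. Later introns of 50 kb or more had 5 higher and 20 lower of 66. Those of 10 to 50 kb had 117 and 236 of 849, and later introns of every length 5526 and 5821 of 28064. These counts share genes and are descriptions only.

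Each member was then set against the other named junctions of its own gene, which share the gene's overall change. Of 113 members with enough reads, 15 (13.3%) had a share of the gene's reads that differed at least 2-fold in odds with an exact 95% interval excluding 1, beside 9.64% over all 29673 junctions compared. Among first introns it was 18.8%, beside 18.4% for first introns of every length, and among later introns 9.23%, beside 9.09%. Long introns were thus close to the background of their position in the gene. The odds were larger in the stimulated library for 8 and smaller for 7, and 7 of the 8 were first introns. First introns of every length leaned the same way, with larger odds for 249 and smaller for 76 of 1771 compared. The plot of members against the rest of their gene names them.

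**Figure D4:**
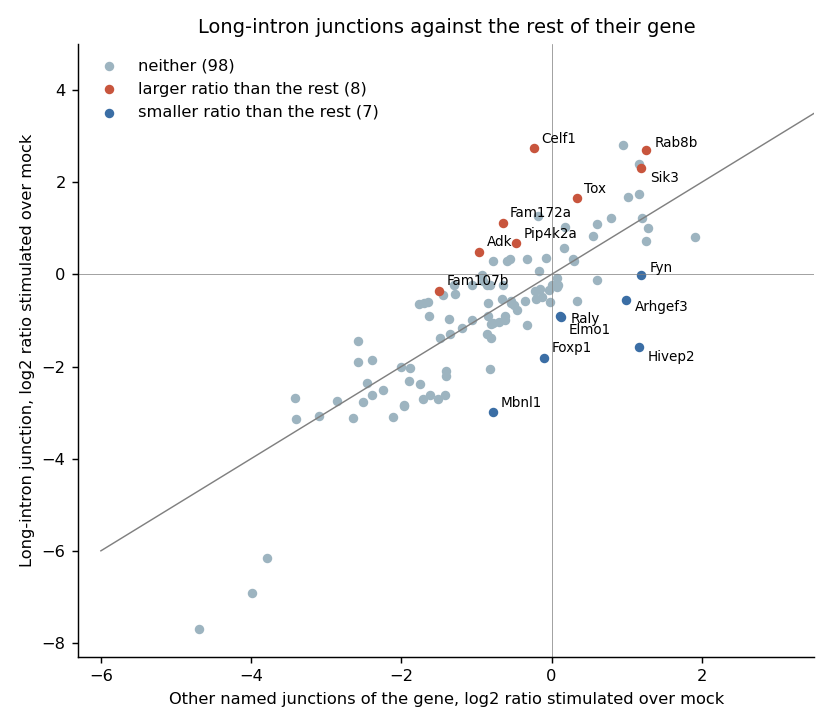
Log2 ratio of stimulated to mock for each of 113 long-intron junctions (y axis) and for the other named junctions of its gene (x axis), with 0.5 reads added and scaled by total junction reads. The diagonal is an equal ratio. Red points are the 8 with larger and blue points the 7 with smaller odds in the stimulated library. Most points lie along the diagonal, and Celf1 and Hivep2 lie farthest from it among the named ones.

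Fyn showed the contrast within 1 gene. Its intron 2, chr10:39114851-39174871, 60021 bp, had 39 reads in the mock and 45 in the stimulated library (ratio 0.987, 0.628 to 1.56), and intron 3, which follows after an exon of 70 bases, had 85 and 318. The odds of intron 2 against the rest of the gene, which had 2.28 times the mock share, were 0.433 (0.273 to 0.692). A longer junction of 116694 bp that joins the donor of intron 2 to the acceptor of intron 3, leaving out the short exon between them, had 6 and 6 reads. The junctions after these introns had 452 and 1124 reads in sum (ratio 2.13). Both introns lie in the 5′ UTR. Over every listed junction, 40 and 46 reads entered the exon of 70 bases at its acceptor site, and 85 and 322 left it at its donor site, so the excess of leaving over entering reads was larger in the stimulated library.

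Mbnl1, which encodes the muscleblind splicing regulator, had 6 long introns, and 5 of them ended at 1 acceptor site. From the donor nearest to it, across 65789 bp, there were 133 and 75 reads (ratio 0.482). From the donor 94170 bp away there were 84 and 84 (0.855, 0.625 to 1.17), and from that 122420 bp away 37 and 5 (0.116, 0.0355 to 0.295). The minor donors at 94499 and 66615 bp gave 9 and 3 and 4 and 6 reads. The share of the acceptor's reads from the donor at 94170 bp was 30.2% of 278 in the mock and 48.6% of 173 in the stimulated library (95% interval of the latter 40.9 to 56.3). That from the most distant donor was 13.3% in the mock and 2.89% in the stimulated library (0.945 to 6.62 for the latter). The most distant donor also joined an exon 55582 bp away with 24 and 13 reads. The other named junctions of the gene had a ratio of 0.585 beside the 122420-bp intron, whose odds were 0.198 (0.0604 to 0.507).

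Foxp1 also had 6 long introns, and its ratios changed along the gene. Intron 5, chr6:98966660-99025847, had 46 and 15 reads (ratio 0.279, 0.145 to 0.509), and the next one, intron 6 of 1014 bp, had 57 and 26 (0.390). The 8 junctions before intron 5 had 76 and 48 reads in sum (0.540), and the 16 after it 1164 and 1305 (0.959, 0.886 to 1.04). Its other long introns read at least 10 times had 11 and 9, 9 and 6 and 10 and 2 reads. In Hivep2 the long intron of 59767 bp in the 5′ UTR had 16 and 6 reads while the 5 junctions after it had 84 and 230 (ratio 2.34, 1.82 to 3.04), the largest departure among the smaller odds (0.143, 0.0448 to 0.402). Another long intron of Hivep2, 62307 bp, had 2 and 9 reads.

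**Figure D5:**
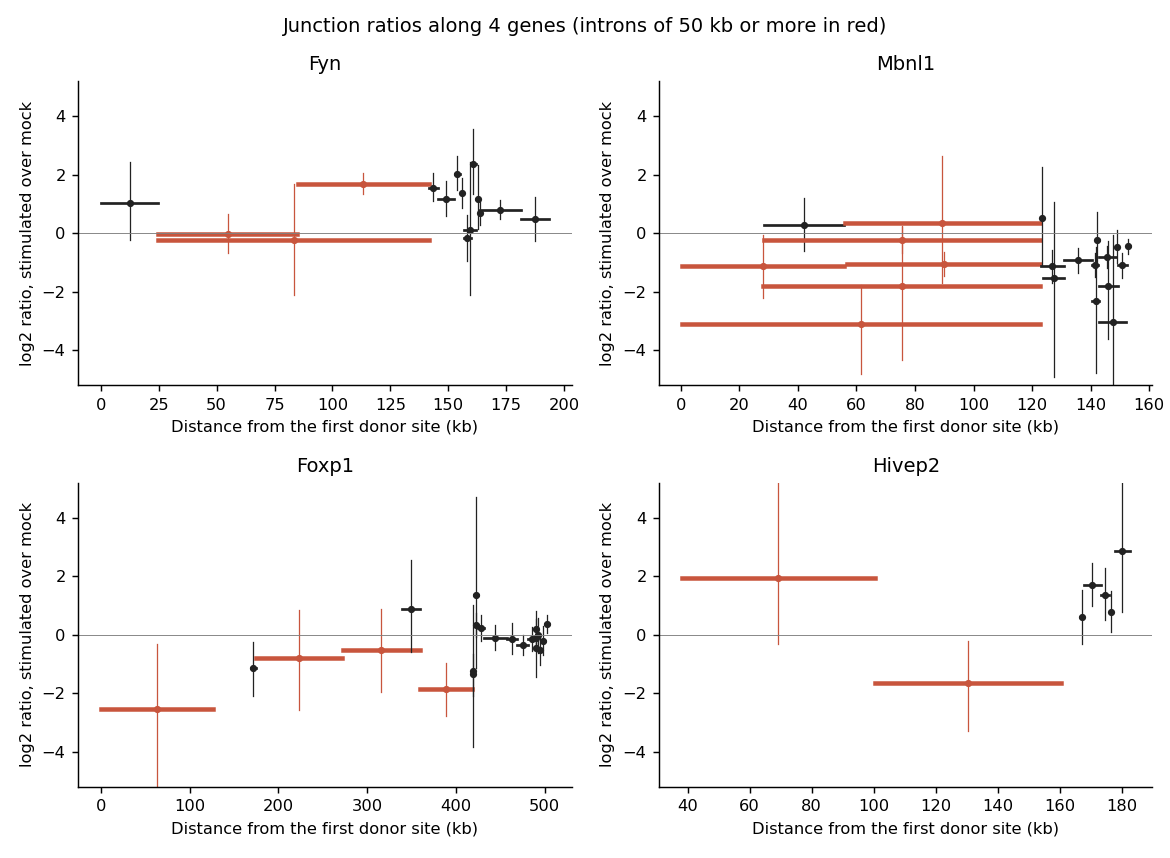
Log2 ratio of stimulated to mock (y axis) of the junctions of Fyn, Mbnl1, Foxp1 and Hivep2 by distance from the first donor site of the gene (x axis, kb). Each horizontal bar spans an intron, vertical lines are exact 95% intervals, which run past the axis for a few, and introns of 50 kb or more are red. Junctions with at least 5 reads in all and some in both libraries are drawn. In Foxp1 the red introns lie below 0 and most of the later black ones near 0.

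The other departures were mostly first introns with larger odds. Celf1, an RNA-binding protein that acts on splicing and decay, had 2 and 19 reads on a first intron of 57938 bp in a gene with 333 and 347 reads (odds 9.59, 2.28 to 85.3). The same acceptor received 9 and 9 reads from a donor 10763 bp away, and the long intron gave 13.3% of its 15 reads in the mock and 52.8% of its 36 in the stimulated library (35.5 to 69.6 for the latter). Rab8b (odds 2.92), Sik3 (2.29), Tox (2.55), Fam172a (3.61), Pip4k2a (2.24) and Fam107b (2.20) were the other first introns. In Fam107b the long intron had 79 and 72 reads while the gene fell from 270 to 151. In Adk, adenosine kinase, intron 3 of 65926 bp had 32 and 53 reads and intron 4 of 64954 bp, the next one, 47 and 29 (ratios 1.42, 0.897 to 2.27, and 0.528, 0.320 to 0.856). Neither passed the threshold between the libraries, and the odds of intron 3 against the rest of the gene were 2.76 (1.65 to 4.65). Smaller odds were also found in Arhgef3, where the donor 97204 bp from the acceptor gave 19 and 15 reads and a nearer one, 26520 bp away, 20 and 110, and in Raly, whose long first intron had 54 and 33 reads while the donor's other main junction of 29458 bp had 30 and 54. The last was intron 16 of Elmo1 (0.492). With the interval widened to the spread between junctions of 1 gene, 9 of the 15 were counted.

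The longest named introns with at least 10 reads were those of Btbd9 (179223 bp, 6 and 8 reads), Skap1, Mllt3, Prkca (148433 bp, 10 and 2) and Tox. Skap1 and Mllt3 were lower, Tox was higher, and Btbd9 and Prkca had too few reads for a call. At the limit of length, the shortest members with 20 reads were in Foxn3 (50120 bp, 16 and 12 reads), Babam2 (50193 bp, 14 and 6) and Actn1, and the longest junctions under it were in Yaf2 (49777 bp, 7 and 22), 9930111J21Rik2 (49495 bp, 91 and 17) and St8sia1 (49367 bp, 24 and 6). Of members with neither end in a gene, the most-read had 31 and 32 reads on chromosome 8 (127313 bp), 1 on chromosome 19 (296664 bp) was lower with 25 and 3, and 1 was higher with 4 and 16. The higher one (127309 bp) shared an end with the most-read one. Chromosome 12 held 143 members, 12.3% of them, beside 3.79% of all junctions, and 117 of the 143 were not annotated introns.

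The 10 T cell markers had 5519 reads per 1000000 in the mock and 6310 in the stimulated library, and 0 of the 10 were at 0 reads. The 10 B cell markers had 195 and 141 and the myeloid ones 85.4 and 79.8, with 1 of 10 at 0 in the mock and 3 of 10 in the stimulated library. Cd8a, Ncr1, Klrb1c, Prf1 and Hba-a1 had 0 named reads in both. Of these markers Cd247, the zeta chain of the receptor, had a member with enough reads, its first intron of 66279 bp with 16 and 12. The part of other cells in the members' values was not tested.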

How the data were processed

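Both libraries were RNA-seq of total RNA, and the deposited files list splice junctions with counts of spanning reads per junction, used as deposited. The submitters' processing notes name TopHat, Cufflinks and mm9; their versions, settings and filters are not stated there. The annotation given was GENCODE M21 on GRCm38, and no coordinate was converted between builds. Genes were named by structure: chromosome, strand and intron length had to equal those of an intron of a transcript, and so did the spacing to 1 or more further junctions of it, to the base. This named 95484 of 124183 junctions (76.9%) in 9697 genes, and 272 that fitted several genes were left out. Ends of the others were placed by their exact distance from a nearby named junction, a step chosen after seeing the data. The reason was that long introns may more often change length between builds, which was not tested. All positions are mm9, from 1.

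Reads were divided by the library's junction reads, 1147232 in the mock and 1341197 in the stimulated library. Ratios have exact 95% intervals from the binomial distribution, shares have Clopper-Pearson intervals, and comparisons within a gene have exact conditional intervals of the odds ratio (SciPy 1.17.1, Python 3.11.15). Where a library had 0 reads, 3 reads were put in its place for the fold, 2.62 per 1000000 in the mock and 2.24 in the stimulated library. Such a fold is not a limit of the interval. Log2 ratios had 0.5 reads added. PCR copies are not marked, so intervals cover counting error only. The naming by structure, the calls and the odds ratios were tested on simulated data. The placing of ends and the comparison of gene copies were not.

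The members and gene lists were chosen with earlier results of these data known. Genes named in the text are the most-read members, those with the highest lower or lowest upper interval limits over all and over annotated introns (the latter added after seeing the data), the longest, those at the 50 kb limit, the 8 with the odds farthest from 1, and the most-read, highest and lowest of each list; others were chosen after their values were seen. One member of a list is not reported here. Alternatives were other scalings, read minimums, folds, lengths and filters.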

Additional observations from a re-analysis of the deposited data

How the results depend on the processing

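Of 67 values under other settings, 34 stayed within 1.5 times the count or within the interval of the value given above, 33 moved further and 0 reversed. The share of junction reads on long introns, 0.696% in the mock and 0.564% in the stimulated library, became 0.617 and 0.507% with junctions of both libraries only, 0.463 and 0.314% with named junctions only, 0.654 and 0.536% without the most-read member, 0.651 and 0.514% with repeated counts taken once (chosen after seeing the data), 0.971 and 0.827% from 40 kb and 0.213 and 0.183% from 100 kb. The share was lower in the stimulated library under each of these. The share of listed junctions, 0.868 and 0.858%, became 1.11 and 1.10% with at least 2 reads and 0.567 and 0.536% with named junctions only. The 32 higher members became 49 with at least 10 reads, 12 with at least 50, 17 at a fold of 4, 13 with named junctions only, 14 with annotated introns only (added after seeing the data), 51 from 40 kb and 14 from 100 kb. The 51 lower ones became 78 with at least 10 reads, 19 with at least 50, 32 at a fold of 4 and 11 from 100 kb, where higher calls then outnumbered lower ones. The 45 lower calls under the trimmed mean of M values were all among the 51, and the 40 higher ones held all 32. Under that scaling 22.1% of tested members were higher and 24.9% lower, beside 25.7% and 16.2% of all junctions. The median log2 ratio was -0.59 with named junctions only. At a fold of 4, 10 genes were higher and 47 lower. The 15 members that differed from their gene became 27 with at least 10 reads, 8 with at least 50 and 9 with the widened interval. The causes were not tested.

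No paired analysis was possible because each group has 1 library. Depth limits what single members can show: 181 of 1167 had 20 reads over both libraries, and 3 reads correspond to 2.62 per 1000000 in the mock and 2.24 in the stimulated library.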
